A study of Homo sapiens with 12 samples.

Results

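The genes described here are 10 markers of the epithelial and mesenchymal states of a cell, found by matching the gene identifiers in the expression tables to the symbols CDH1, CDH2, CDH3, EPCAM, TJP1, VIM, FN1, CD44, ZEB1 and SNAI2. All 10 were present among 56632 genes. The markers were measured in MCF10A cells, a human mammary epithelial line that does not form tumors, and in a CBFB_KO derivative, to ask how loss of the RUNX partner protein CBFB changes which mRNAs sit on ribosomes. WT cells and CBFB_KO cells were both exposed to 100 µg/ml cycloheximide for 30 min, which holds ribosomes on mRNA, and their lysates were spread through a 10-50% sucrose gradient. RNA from the free (no ribosome), mono (single ribosome) and poly (several ribosomes) parts of the gradient was sequenced with an mRNA kit, with 2 libraries per genotype and fraction and 12 in all.

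Both genotypes were grown in the same medium with horse serum, insulin, EGF, hydrocortisone and cholera toxin, so each carries these signals. The knockout was made with CRISPR-Cas9 and, per the methods of the study, taken from single cell colonies. How many clones entered the libraries is not given in the sources used here, so an effect of the clone and an effect of the knockout cannot be told apart. The labels do not say that the 2 libraries of a group came from separate cultures, and p-values then measure only the spread between these libraries, which may be technical. With 2 against 2 libraries a two-sided exact permutation test cannot go below 0.333, and the tests below therefore come from edgeR's quasi-likelihood fit across all 16275 genes that passed its count filter, with Benjamini-Hochberg adjustment.

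Epithelial cells hold one another through cadherins at adherens junctions and through tight junctions, and they carry a keratin skeleton. In an epithelial to mesenchymal transition, repressors of the SNAI and ZEB families bind E-boxes at epithelial genes such as CDH1, and the cell gains vimentin filaments, fibronectin matrix and motility. Basal mammary cells, from which MCF10A takes many traits, are known for expressing P-cadherin, CD44 and SNAI2 together with epithelial junction genes.

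Levels are given as RPKM, reads scaled to the length of the transcript and to the size of the library after TMM scaling, so that genes can be compared per length. The libraries held 41050325 to 63886726 counts. The free libraries of CBFB_KO stood apart, because mitochondrial genes took 71.56% and 87.22% of their counts, against 11.1% and 20.81% in WT free and 1.26% to 8.08% in the mono and poly libraries. This left 13568143 and 5247878 counts for other genes in CBFB_KO free and at least 43279862 elsewhere. The poly libraries of CBFB_KO were nearly identical, with a mean chi-square per gene of 2.26 between them against 128 to 957 for the other pairs, which makes their spread small. The targeted gene CBFB was measured at 2.02 and 4.75 RPKM in WT free and 4.27 and 5.29 in CBFB_KO free, and at 2.15 and 2.57 in WT poly against 1.35 and 1.51 in CBFB_KO poly. No difference in CBFB between genotypes passed the test in any fraction, and a CRISPR deletion need not lower the RNA of its target, so this gene does not check the labels.

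The epithelial label fitted its markers. KRT5, a basal keratin, was between 179 and 1670 RPKM in the 12 libraries, and KRT8 and KRT18, keratins of luminal cells that this line also makes, were between 27.2 and 393. All 9 basal markers reached at least 0.1 RPKM in some library. The 10 fibroblast markers summed to 0.456 to 2.62 RPKM in WT and 1.05 to 3.92 in CBFB_KO, and COL1A2, COL3A1, LUM, THY1 and POSTN stayed under 0.1 in every library. The 8 endothelial and leukocyte markers found in the tables summed to 4.76 to 18.7 RPKM in WT and 2.75 to 9.01 in CBFB_KO, with CDH5, PTPRC, CD3E and HBB under 0.1 in every library. The 12 luminal markers, of which PGR, ELF5, KIT and TFF1 were under 0.1 throughout, summed to 334 to 782 RPKM in WT and 273 to 764 in CBFB_KO. In bulk RNA fewer cells in a state and less RNA per cell cannot be told apart.

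Promoter sequence was matched for 6 of the 10 markers in RefSeq (GRCh38.p14), with 16 start sites between them, and CDH1, CDH3, EPCAM and SNAI2 had no entry. Of these 16 windows of 300 bases, 3 held the E-box CACCTG or its complement CAGGTG (18.8%, against 20.6% of all 35116 promoters) and 3 held the RUNX motif TGTGGT or ACCACA (18.8%, against 13.1%). One ZEB1 window held both motifs, overlapping. The 250 bases before a start site are shown for VIM, the marker that fell on ribosomes in CBFB_KO, and for TJP1 and CD44, which rose in the free fraction, with any motif in capitals. TJP1 has 4 start sites in the table, and the one shown is the only one of them with a motif, since the stretches before the other 3 hold neither:
VIM, chr10:17227991-17228240, plus strand: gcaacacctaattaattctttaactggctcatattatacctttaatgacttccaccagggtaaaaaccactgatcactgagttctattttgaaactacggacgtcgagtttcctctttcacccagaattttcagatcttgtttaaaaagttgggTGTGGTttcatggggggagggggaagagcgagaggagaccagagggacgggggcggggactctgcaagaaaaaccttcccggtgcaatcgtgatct
TJP1, chr15:29969050-29969299, minus strand: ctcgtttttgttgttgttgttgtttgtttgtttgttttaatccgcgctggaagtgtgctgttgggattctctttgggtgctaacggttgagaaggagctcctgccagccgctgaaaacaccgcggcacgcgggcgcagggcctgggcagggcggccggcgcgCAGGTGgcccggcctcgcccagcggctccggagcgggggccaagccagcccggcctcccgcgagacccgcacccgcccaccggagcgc
CD44, chr11:35138921-35139170, plus strand: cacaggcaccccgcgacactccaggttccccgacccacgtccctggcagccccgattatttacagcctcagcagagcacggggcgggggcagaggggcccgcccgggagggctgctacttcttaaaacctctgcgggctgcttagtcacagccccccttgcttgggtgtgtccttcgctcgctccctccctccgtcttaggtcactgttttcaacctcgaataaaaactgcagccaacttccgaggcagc
The VIM sequence holds 1 RUNX motif, beginning 96 bases before the start site, the TJP1 sequence holds 1 E-box, beginning 88 bases before it, and the CD44 sequence holds neither. A match of letters is a description and says nothing of whether a factor binds there.

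In WT free RNA the order of the levels was CD44 (mean 26.8 RPKM), CDH3 (23.3), SNAI2 (9.21), CDH1 (4.92) and VIM (3.86), then EPCAM, TJP1 and FN1 below 1. CD44 and CDH3 overlapped between their 2 libraries, and so did EPCAM with TJP1 and TJP1 with FN1. In WT poly the order became CDH3 (80.3), CD44 (68.8), CDH1 (38.9), EPCAM (9.09), VIM (5.47) and SNAI2 (2.29). CDH3 or CD44 was highest in all 6 conditions, also in the deposited TPM. In WT poly CDH3 overlapped with CD44 and CD44 with CDH1. In CBFB_KO poly VIM ranked 8 of 10, at 0.255 RPKM, below FN1 (1.48) and TJP1 (1.03).

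**Figure D1:**
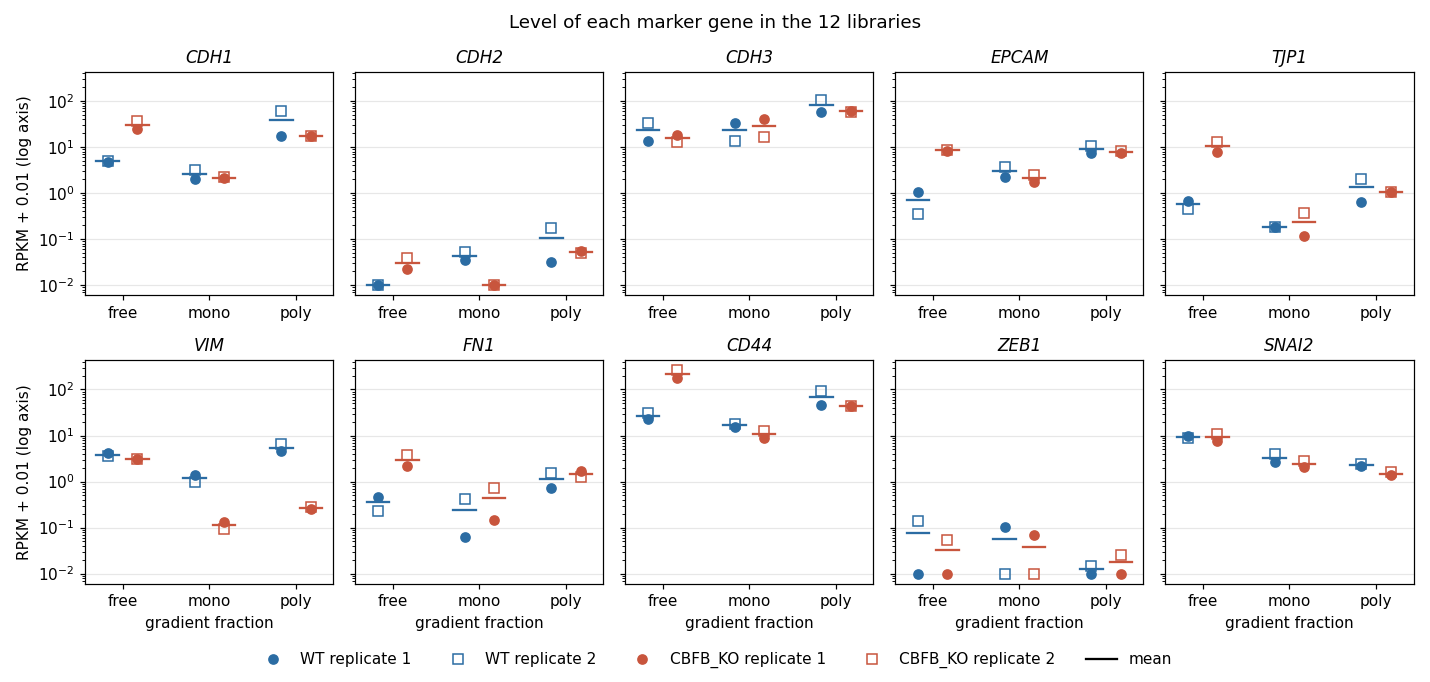
RPKM plus 0.01 (log axis) of each marker in the 12 libraries by gradient fraction, with WT in blue and CBFB_KO in red, circles for replicate 1, open squares for replicate 2 and a bar for the mean. CD44, CDH1, EPCAM, TJP1 and FN1 stand higher in CBFB_KO free than in WT free, and VIM stands lower in CBFB_KO mono and poly.

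The question of the design is whether the genotype changes a marker's level in each fraction. In the free fraction 5 of the 10 markers rose in CBFB_KO (CDH1, EPCAM, TJP1, FN1 and CD44) and none fell, while 24.2% of all genes tested rose. The median over the markers was 2.84 on the log2 scale, against 0.04 over all genes. In mono and in poly 1 marker fell, VIM in each, where 0.117% and 0.166% of all genes fell. The free result depends on the scaling. Without TMM factors 1281 of all genes rose and 6461 fell, against 3943 and 2939 with them, and 2 markers rose (EPCAM and TJP1) while CDH3, SNAI2 and VIM fell. With mitochondrial genes removed and no TMM factors, a setting added after seeing the data, 5 markers rose and none fell. In that setting 4427 of 16889 genes rose and 1732 fell.

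Among the cadherins, CDH1 encodes E-cadherin, the adhesion molecule of adherens junctions. It was measured at 4.77 and 5.07 RPKM in WT free and at 25.3 and 36.4 in CBFB_KO free. The groups did not overlap, and CDH1 rose 6.26-fold (log2 2.65, SE 0.55, adjusted p = 0.0045). In the deposited TPM the same libraries held 5.27 and 7.34 in WT and 5.71 and 1.94 in CBFB_KO, so no rise is seen on that scale. There mitochondrial RNA counts toward the total, and each library's own estimated transcript lengths are used. The CDH1 length was 1441.7 and 1240.64 bases in WT free and 2093.42 and 3027.27 in CBFB_KO free. The part of either was not tested. Without TMM factors the CDH1 change was 0.87 on the log2 scale (adjusted p = 0.26), where the median of all genes moved to -1.57. With the 37 mitochondrial genes removed and no TMM factors, a setting added after seeing the data, it was 3.01 (adjusted p = 0.0042).

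On ribosomes no CDH1 change passed the test. Mono libraries held 1.97 and 3.1 RPKM in WT and 2.09 and 2.22 in CBFB_KO, and overlapped. Poly libraries held 17.4 and 60.3 in WT and 17.2 and 17.3 in CBFB_KO. These did not overlap, but WT replicate 1 lay close to the CBFB_KO libraries and WT replicate 2 stood far above the other 3. The poly change of -1.17 on the log2 scale (SE 0.52) had an unadjusted edgeR p of 0.045 and an adjusted p of 1, and it was 0.02 without WT replicate 2.

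CDH3 encodes P-cadherin, the classical cadherin of basal mammary cells. It was measured at 13.5 and 33 RPKM in WT free and 18.5 and 12.7 in CBFB_KO free, at 33.4 and 13.7 in WT mono and 40.1 and 16.7 in CBFB_KO mono, and at 56.8 and 104 in WT poly and 60 and 59.2 in CBFB_KO poly. The groups overlapped in each fraction and no change passed the test. The log2 changes were -0.58 (SE 0.6, adjusted p = 0.46) in free and -0.43 (SE 0.6, adjusted p = 1) in poly. In free, 3 other settings called it lower, at -2.21 without TMM factors, -1.35 with a gene length correction and -1.38 with that correction and the replicate block.

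CDH2 encodes N-cadherin, the cadherin that mesenchymal cells gain. It held 100 counts over all 12 libraries, with 54 of them in WT poly replicate 2, 8 in WT poly replicate 1, 12 in each CBFB_KO poly library, none in WT free and 1 in each CBFB_KO free library. Only 3 of 12 libraries held 10 counts or more, so CDH2 passed the filter through poly libraries. No fold between genotypes is given where both groups lie at or under 3 counts per library, as in free.

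The ratio of CDH1 to CDH3 inside a library does not depend on the scaling of the library, but it uses 1 length per gene. The estimated length in CBFB_KO free was longer for CDH1 and shorter for CDH3 than in WT free. The ratio was 0.353 and 0.154 in WT free and 1.37 and 2.87 in CBFB_KO free, with means of 0.253 ± 0.141 and 2.12 ± 1.06 (SD, n = 2). In the deposited TPM, with lengths per library, CDH1 against CDH3 was 5.71 against 4.79 and 1.94 against 1.36 in CBFB_KO free. In WT free it was 5.27 against 8.74 and 7.34 against 25.53. The groups did not overlap in free. In mono the ratio was 0.0591 and 0.226 in WT and 0.0521 and 0.132 in CBFB_KO, and in poly 0.307 and 0.582 in WT and 0.286 and 0.292 in CBFB_KO. In poly both CBFB_KO ratios lay below both WT ratios, while in mono they overlapped.

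EPCAM encodes the epithelial cell adhesion molecule, a surface protein of simple epithelia. It was measured at 1.05 and 0.343 RPKM in WT free and 8.14 and 8.8 in CBFB_KO free, a rise of 12.2-fold (log2 3.61, SE 0.55, adjusted p = 0.00083). The deposited TPM was at 1.14 and 0.34 in WT and 2.6 and 0.98 in CBFB_KO, with overlap between the groups. In mono the values were 2.23 and 3.7 in WT and 1.77 and 2.42 in CBFB_KO, and in poly 7.47 and 10.7 in WT and 7.47 and 8.02 in CBFB_KO. Neither fraction passed the test (log2 -0.5 and -0.23, adjusted p = 1).

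TJP1 encodes a zonula occludens scaffold of tight junctions. It was at 0.669 and 0.446 RPKM in WT free and at 7.63 and 13.1 in CBFB_KO free. It rose 18.5-fold (log2 4.21, SE 0.68, adjusted p = 0.0012). The rise passed the test in all 15 settings run, but its size did not hold, at 2.44 with the gene length correction, 2.31 with that correction and the replicate block, and 2.4 without TMM factors. In poly TJP1 was at 0.645 and 2.04 in WT and 1.03 and 1.04 in CBFB_KO, and in mono at 0.171 and 0.178 in WT and 0.106 and 0.353 in CBFB_KO. Both of these overlapped, with an adjusted p of 1.

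VIM encodes vimentin, the intermediate filament of mesenchymal cells that basal lines such as this one also carry. In the free fraction it was at 4.21 and 3.51 RPKM in WT and 3.16 and 3.15 in CBFB_KO, and the change of -0.29 on the log2 scale (SE 0.41, adjusted p = 0.59) did not pass the test. That free result depends on the scaling, since without TMM factors VIM fell by 1.97 (adjusted p = 0.013), and the deposited TPM was at 3.58 and 3.27 in WT and 0.83 and 0.3 in CBFB_KO. On ribosomes the genotypes separated. In mono VIM was at 1.38 and 0.955 in WT and 0.122 and 0.0826 in CBFB_KO, and in poly at 4.5 and 6.43 in WT and 0.241 and 0.269 in CBFB_KO.

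In neither fraction did the groups overlap. VIM fell by 3.47 on the log2 scale in mono (SE 0.49, adjusted p = 0.018) and it fell by 4.42 in poly (SE 0.47, adjusted p = 0.0024), which is 11.1-fold and 21.4-fold lower. The CBFB_KO values rest on few counts, 11 and 5 in mono and 31 and 38 in poly, against 134 and 74 and 784 and 973 in WT. The poly call was lost without either CBFB_KO replicate (log2 -4.34 and -4.5, adjusted p = 0.35 and 0.26) and with the nearly identical CBFB_KO poly pair counted as 1 sample (-4.37, adjusted p = 0.13), with the change itself about as large. The mono call was lost in 7 of 15 settings, at changes of -3.8 to -3.17. Where strand was not used in counting, reads of VIM and of its antisense gene cannot be told apart.

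FN1 encodes fibronectin, the matrix protein of mesenchymal cells. It was at 0.461 and 0.223 RPKM in WT free and 2.18 and 3.69 in CBFB_KO free, a rise of 8.53-fold (log2 3.09, SE 0.99, adjusted p = 0.029) that rests on 29 to 86 counts per library. In mono it was at 0.0513 and 0.412 in WT and 0.133 and 0.725 in CBFB_KO, and in poly at 0.704 and 1.52 in WT and 1.69 and 1.27 in CBFB_KO. Both overlapped. The free call was lost without CBFB_KO replicate 2 (log2 2.68) and without WT replicate 2 (2.58). It was also lost without TMM factors (1.31, edgeR adjusted p = 0.24) and with only the libraries of the comparison (3.13, edgeR adjusted p = 0.052). In the deposited TPM the free groups overlapped, at 0.29 and 0.09 in WT and 0.57 and 0.14 in CBFB_KO.

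CD44 encodes the hyaluronan receptor that marks basal and stem-like mammary cells. In the free fraction it was at 22.4 and 31.3 RPKM in WT and at 179 and 259 in CBFB_KO. This was 8.17-fold higher (log2 3.03, SE 0.46, adjusted p = 0.00081), and on this scale no other marker reached that level in any library. In the deposited TPM CDH3 in WT poly stood above CD44 in CBFB_KO free, at 83.01 and 161.14. Without TMM factors the CD44 change in free was 1.24 on the log2 scale (edgeR adjusted p = 0.072) and did not pass the test. In mono CD44 was at 15.5 and 17.8 in WT and 8.69 and 12.4 in CBFB_KO, and in poly at 46.4 and 91.1 in WT and 43.7 and 43.1 in CBFB_KO. The CBFB_KO values lay below the WT values in both, but neither change, -0.66 on the log2 scale in each (SE 0.43), passed the test. The deposited TPM of the free libraries overlapped, at 25.52 and 30.09 in WT and 31.55 and 22.91 in CBFB_KO.

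Of the repressors, SNAI2, also called Slug, is the SNAI family member of basal mammary cells. It was at 9.54 and 8.89 RPKM in WT free and 7.54 and 10.9 in CBFB_KO free, at 2.62 and 3.88 in WT mono and 2.06 and 2.73 in CBFB_KO mono, and at 2.21 and 2.38 in WT poly and 1.35 and 1.62 in CBFB_KO poly. Only the poly groups did not overlap, and the change there was -0.63 on the log2 scale (SE 0.37, adjusted p = 1). In free it was 0.00 (SE 0.37, adjusted p = 1), but -1.77 (adjusted p = 0.0084) without TMM factors, so its value in free depends on the scaling.

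ZEB1, a zinc finger repressor of epithelial genes, held 47 counts in all, of which 23 lay in WT free replicate 2 and 12 in WT mono replicate 1. In 9 of 12 libraries it was at 3 counts or fewer. A level of this marker could not be compared between genotypes at this depth.

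**Figure D2:**
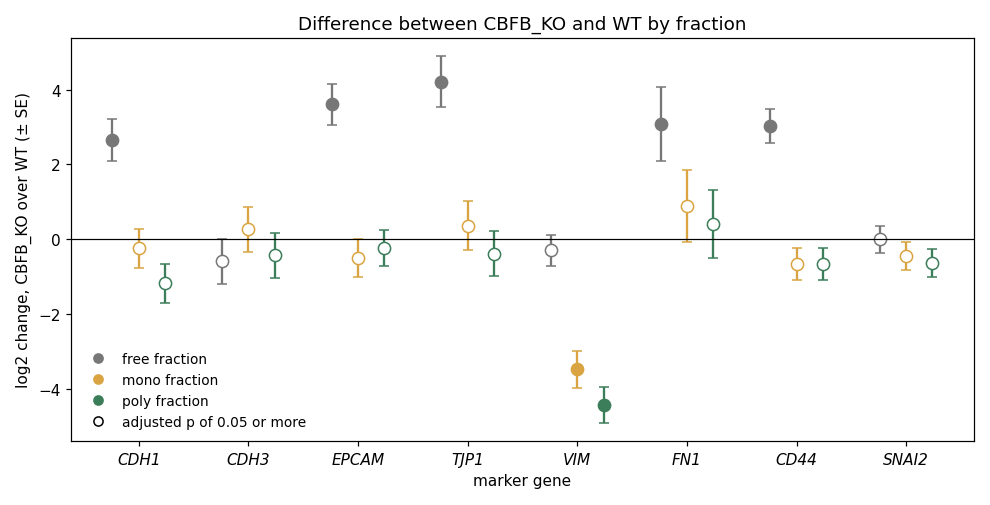
Log2 change between CBFB_KO and WT, with its standard error, for the 8 markers with enough counts, in the free (grey), mono (yellow) and poly (green) fractions. Filled points passed an adjusted p of 0.05; CDH1, EPCAM, TJP1, FN1 and CD44 are filled above 0 in free, and VIM is filled below 0 in mono and poly.

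Whether a marker's place on polysomes shifted was asked from the ratio of poly to free, tested as an interaction between genotype and fraction. The ratio fell in CBFB_KO for 5 of the 10 markers (CDH1, EPCAM, TJP1, VIM and CD44) and rose for none, where it fell for 14.3% of all genes. With TMM factors the free level was higher in CBFB_KO for 4 of the 5, and for VIM the poly level was lower. Without TMM factors the split of all genes turned, with the ratio higher for 3003 and lower for 646, against 668 and 2332 with them. The poly and free libraries of one number gave a VIM ratio of 1.07 and 1.83 in WT and 0.0763 and 0.0853 in CBFB_KO. For CDH1 it was 3.65 and 11.9 against 0.679 and 0.474, and for CD44 2.07 and 2.92 against 0.244 and 0.166.

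None of these 3 markers overlapped between genotypes, and neither did EPCAM (7.14 and 31.2 against 0.917 and 0.912) or TJP1 (0.964 and 4.57 against 0.135 and 0.0794). The log2 changes of the ratio were -3.82 for CDH1 (SE 0.75, adjusted p = 0.0064), -3.84 for EPCAM (SE 0.73, adjusted p = 0.0054), -4.59 for TJP1 (SE 0.89, adjusted p = 0.006), -4.13 for VIM (SE 0.61, adjusted p = 0.0014) and -3.69 for CD44 (SE 0.63, adjusted p = 0.003). FN1 did not pass (-2.68, SE 1.31, adjusted p = 0.16). For CDH3 (0.15, SE 0.85, adjusted p = 0.93) and SNAI2 (-0.63, SE 0.52, adjusted p = 0.39) the sign changed with the setting, to -0.14 for CDH3 with mitochondrial genes removed and no TMM factors and to 1.14 for SNAI2 without TMM factors.

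All 5 calls were lost without CBFB_KO replicate 2, which left 1 free library of that genotype, at changes of -4.22 to -3.41 and adjusted p of 0.053 to 0.12. Without TMM factors 2 of the 5, VIM and TJP1, were still called. With mitochondrial genes removed and no TMM factors, a setting added after seeing the data, all 5 were called, at -5.01 to -4.05. In that setting the ratio was higher for 417 and lower for 2646 of 16889 genes. The TJP1 call was also lost with the gene length correction (-2.69, adjusted p = 0.069), with that correction and the replicate block (-2.46, adjusted p = 0.076) and without WT replicate 2 (-3.16, adjusted p = 0.054). The share of mitochondrial counts moved with the free fraction of CBFB_KO, and its part in these changes was not tested.

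**Figure D3:**
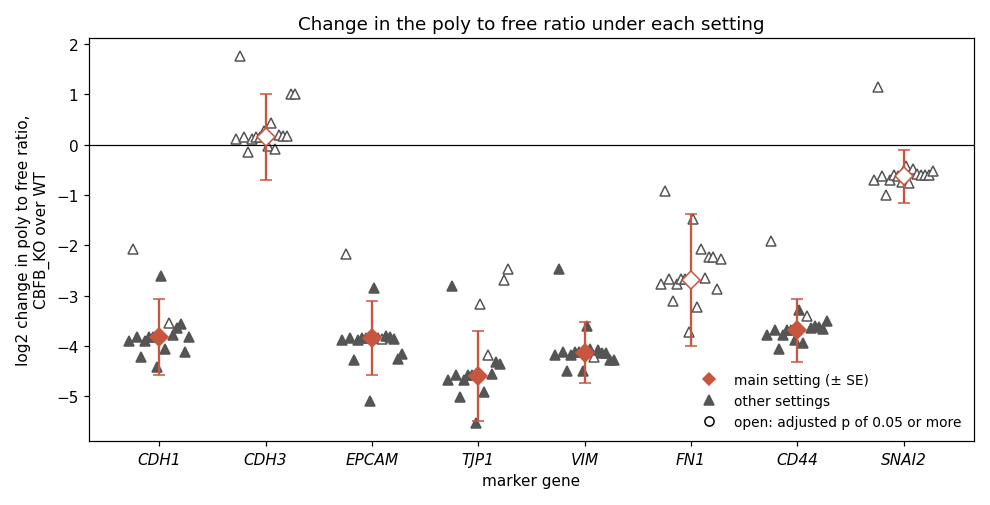
Log2 change between genotypes (CBFB_KO over WT) in the ratio of poly to free for 8 markers, with the main setting as diamonds (± SE) and each other setting as a triangle, open where the adjusted p was 0.05 or more. CDH1, EPCAM, TJP1, VIM and CD44 lie below 0 in every setting, while CDH3 and SNAI2 take both signs.

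The ratio of poly to mono did not pass the test for any marker, or for any of the 16275 genes that passed the count filter (0% by edgeR, and 0 by DESeq2). With no low-count filter it was higher for 7 and lower for 9 of 24497 genes, with no marker among them. At an unadjusted p under 0.05 there were 164 of 16275 genes and none of the markers. The changes of the 8 markers with enough counts lay between -0.94 (VIM and CDH1) and 0.27 (EPCAM) on the log2 scale.

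Within a genotype, WT poly held more CDH1 than WT free (log2 2.98, SE 0.55, adjusted p = 0.0046), and so for EPCAM (3.71, SE 0.55, adjusted p = 0.0021) and CD44 (1.36, SE 0.44, adjusted p = 0.045), while SNAI2 fell by 2.00 (SE 0.38, adjusted p = 0.005). Among these markers 3 rose and 1 fell, where 14% of all genes rose and 7.99% fell. CDH2 also passed the threshold, but it had entered the test through its poly libraries and is not counted with them. WT free held none of its counts, and 54 of the 62 in WT poly lay in replicate 2, without which the adjusted p was 0.17. In CBFB_KO, CDH3 rose in poly against free (log2 1.94, SE 0.62, adjusted p = 0.035), and CD44 (-2.34, SE 0.45, adjusted p = 0.0032), SNAI2 (-2.64, SE 0.39, adjusted p = 0.00077), TJP1 (-3.32, SE 0.65, adjusted p = 0.0036) and VIM (-3.62, SE 0.46, adjusted p = 0.00032) fell, where 14.6% of all genes rose and 16.7% fell. These CBFB_KO calls depend on the scaling. Without TMM factors CD44 was at -0.01 (adjusted p = 0.99), SNAI2 at -0.32 (adjusted p = 0.56) and TJP1 at -0.96 (adjusted p = 0.21), none of them past the test, while VIM (-1.4, adjusted p = 0.049) and CDH3 (4.08, adjusted p = 0.0032) still passed. SNAI2 thus fell from free to poly in WT on both scales (-1.46 without the factors), and in CBFB_KO with TMM factors but not without them. Without TMM factors the poly levels stood higher for 7669 genes and lower for 566 in CBFB_KO, against 2381 and 2723 with them, and for 2495 and 347 in WT, against 2273 and 1301. On that scale the changes of CDH1, EPCAM and FN1 in CBFB_KO were 1.48, 2.12 and 1.37, against -0.84, -0.13 and -0.98 with the factors. Of these, EPCAM then passed the edgeR test as higher in poly (adjusted p = 0.01), and CDH1 and FN1 did not. The WT call of CD44 was lost in 9 of 16 settings and that of CDH2 in 8 of 15. The CBFB_KO call of CDH3 was lost in 4 of 16. In WT the CDH3 change was of similar size, at 1.79 (SE 0.62, edgeR adjusted p = 0.06), and did not pass. With the DESeq2 test the CDH3 change in WT did pass (1.66, adjusted p = 0.014).

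The ratio of VIM to CDH1 inside a library was lower in CBFB_KO in every fraction. It was 0.882 and 0.691 in WT free against 0.125 and 0.0866 in CBFB_KO free, 0.698 and 0.308 in WT mono against 0.0586 and 0.0373, and 0.258 and 0.107 in WT poly against 0.014 and 0.0156. The groups did not overlap in any fraction. Which of the 2 genes moved in free depends on the scaling. With TMM factors CDH1 rose there and VIM did not pass the test, and without them VIM fell and CDH1 did not pass. VIM over CDH3 overlapped in free, at 0.311 and 0.106 in WT and 0.171 and 0.249 in CBFB_KO, and did not overlap in poly, at 0.0792 and 0.062 in WT and 0.00401 and 0.00454 in CBFB_KO.

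**Figure D4:**
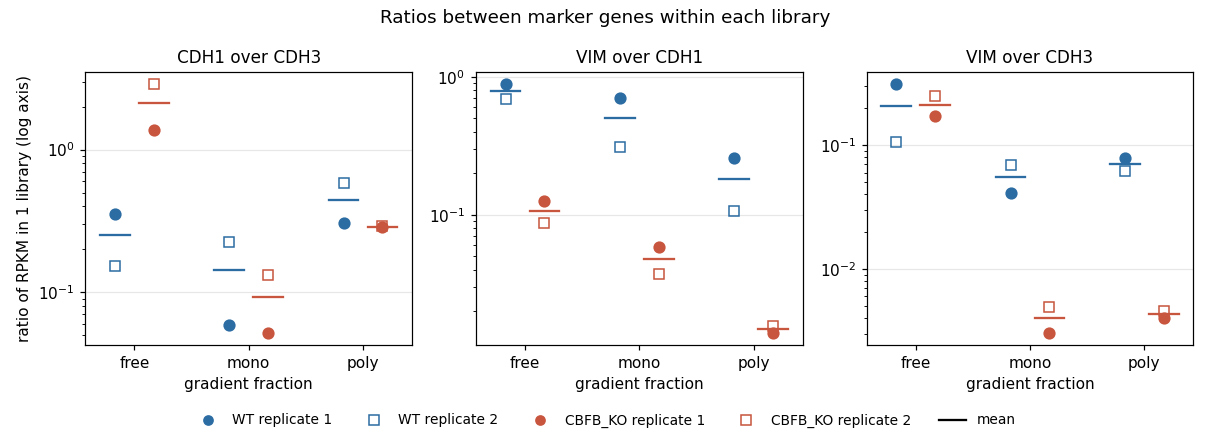
Ratio of the RPKM of 2 markers within each library (log axis) by gradient fraction, with WT in blue, CBFB_KO in red and bars for the mean. CDH1 over CDH3 is above 1 in both CBFB_KO free libraries and below 1 in the others, and VIM over CDH3 is between 0.00305 and 0.00494 in the CBFB_KO mono and poly libraries.

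The RSEM tables also give a transcript length per gene, averaged over isoforms by their estimated abundance, which moves when a gene's isoforms shift. In free RNA 5 markers had at least 100 counts in each library. TJP1 was at 2604.73 and 3323.74 bases in WT and 4793.17 and 4884.1 in CBFB_KO, CDH1 at 1441.7 and 1240.64 against 2093.42 and 3027.27, and CD44 at 1633.34 and 2062.1 against 3073.9 and 2240.55. These 3 were longer in both CBFB_KO libraries, where 30.8% of 4052 genes with as many counts were, and CDH3 was shorter (3693.2 and 3381.89 against 2874.5 and 2508.63), where 21.9% were. SNAI2, which has 2 annotated transcripts, was at 2088 to 2089.83 in all 4.

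**Figure D5:**
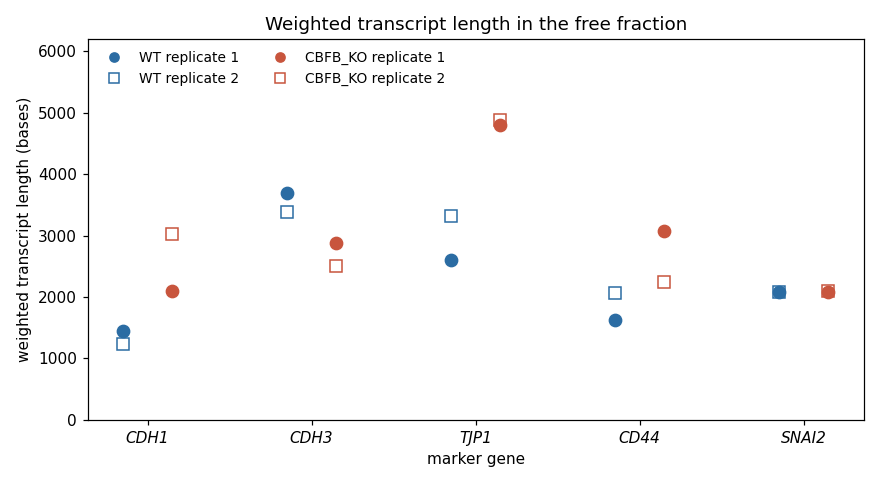
Abundance-weighted transcript length in bases of the 5 markers with at least 100 counts in each free library, with WT in blue and CBFB_KO in red. TJP1, CDH1 and CD44 are longer and CDH3 is shorter in both CBFB_KO libraries.

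Across the 12 libraries CDH1 was followed most closely by COPA (Pearson r = 0.997 of log2 CPM), GLUD1, ITGA6 and MYOF (0.989 each) and TOP1 (0.987). VIM was followed most closely by a gene listed only as ENSG00000117289 (r = 0.965), ALDH3B1 (0.959), EMC10 (0.951), PNLIPRP3 (0.947) and SPARC (0.94). CDH1 and VIM had an r of 0.487 with each other, and CD44 and TJP1 one of 0.97. These libraries share genotypes, gradients and depth, and no p is given.

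Other genes of these pathways were taken from lists. Their counts are set against all genes tested, of which 24.2% rose and 18.1% fell in CBFB_KO free, and of which 14.3% fell and 4.1% rose in the poly to free ratio. All list counts and changes use TMM factors and depend on that scaling. Without the factors 1281 of all genes rose and 6461 fell in free, and the ratio rose for 3003 and fell for 646. The lists were not counted again on that scale. Of 12 cadherin partners, 8 rose (66.7%) and 2 fell (16.7%) in CBFB_KO free, with a median of 2.28 on the log2 scale against 0.04 for all genes, and none passed the test in mono or poly. The poly to free ratio fell for 7 of the 12 (58.3%) and rose for 1. It fell most for CTNND1, a catenin that stabilizes cadherins at the membrane (log2 -5.92, SE 0.73, adjusted p = 0.00059), VCL, vinculin (-5.43, SE 0.84, adjusted p = 0.0019), and NECTIN1, a junction adhesion protein (-4.13, SE 0.52, adjusted p = 0.00061). CTNND1 was at 4.66 and 6.41 RPKM in WT free and 241 and 315 in CBFB_KO free, and at 8.71 and 19.7 in WT poly and 11.8 in both CBFB_KO poly libraries.

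Of 35 epithelial junction and polarity genes, 12 rose (34.3%, against 24.2% of all genes) and 6 fell (17.1%, against 18.1%) in CBFB_KO free, with a median of 0.06. The poly to free ratio fell for 10 (28.6%, against 14.3%) and rose for 1. It fell most for ESRP1, a splicing factor of epithelial cells (-4.19, SE 0.8, adjusted p = 0.0056), DSC3, a desmosomal cadherin (-4.14, SE 0.97, adjusted p = 0.015), and DSP, the desmosomal plaque protein (-3.77, SE 0.77, adjusted p = 0.0079). None of the 35 passed the test between genotypes in mono or poly.

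Of 16 fibronectin and hyaluronan receptors and matrix partners that passed the count filter, 8 rose (50%, against 24.2% of all genes) and none fell in CBFB_KO free, and the poly to free ratio fell for 5 (31.2%, against 14.3%). MSN, the moesin linker of CD44 to actin, went from 6.51 and 8.79 RPKM in WT free to 364 and 374 in CBFB_KO free, and its ratio fell by 6.19 on the log2 scale (SE 0.56, adjusted p = 0.00036). ITGAV (-5.61, SE 1.71, adjusted p = 0.042) and ITGA6 (-3.92, SE 0.83, adjusted p = 0.0095), both integrin chains, fell as well. Of the 8 vimentin relatives and cytolinkers tested, the ratio fell for 1 (12.5%, near the 14.3% of all genes), PLEC, the plectin cytolinker (-2.25, SE 0.63, adjusted p = 0.031).

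Of 39 mesenchymal matrix and cytoskeleton genes tested, 13 rose (33.3%, against 24.2% of all genes) and 6 fell (15.4%, against 18.1%) in CBFB_KO free. The poly to free ratio fell for 12 (30.8%, against 14.3%) and rose for 2. In mono and in poly 1 of the 39 fell, SPARC in each, a matrix glycoprotein. SPARC was at 1.67 and 1.37 RPKM in WT free and 2.39 and 4.25 in CBFB_KO free, at 0.733 and 0.889 in WT mono and 0.0264 and 0.0392 in CBFB_KO mono, and at 5.59 and 6.64 in WT poly and 0 and 0.0084 in CBFB_KO poly. With 0 and 1 counts in those last libraries, SPARC was at least 232-fold lower in CBFB_KO poly, against a floor of 3 counts per library (adjusted p = 0.0006), and its free groups did not overlap in the other direction (log2 1.11, adjusted p = 0.097). With TMM scaling, VIM and SPARC thus both fell in mono and poly and passed no test in free, while without TMM factors VIM fell in free as well. The SPARC calls were not followed in the other settings, so whether they hold without a replicate is not known.

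FAP, a fibroblast protease, and COL8A1, a collagen, had no counts in WT free. With TMM factors, and against a floor of 3 counts per library, they were at least 66.6-fold and 43.5-fold higher in CBFB_KO free. Their counts there were 61 and 28 and 50 and 14. The folds depend on the scaling, since the TMM factors were 0.494 and 0.241 in CBFB_KO free and 1.124 and 1.241 in WT free. No bound was computed without the factors.

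Of 21 EMT transcription factors and partners tested, 5 rose (23.8%, near the 24.2% of all genes) and 3 fell (14.3%, against 18.1%) in CBFB_KO free, and the poly to free ratio fell for 4 (19%, against 14.3%). It fell most for RCOR1 (-4.91, SE 0.57, adjusted p = 0.00047) and HDAC2 (-3.87, SE 0.73, adjusted p = 0.005), subunits of repressor complexes, and for SOX9, a transcription factor of mammary stem cells (-3.61, SE 0.61, adjusted p = 0.0029). In mono and in poly 1 of the 21 fell, FOXC2 in each, a forkhead factor linked to mesenchymal differentiation that is named here after its values were seen. FOXC2 was at 8.68 and 11.8 RPKM in WT free and 5.55 and 5.63 in CBFB_KO free, at 6.66 and 4.09 in WT mono and 0.162 and 0.166 in CBFB_KO mono, and at 4.47 and 4.17 in WT poly and 0.2 and 0.269 in CBFB_KO poly. It fell by 5.02 on the log2 scale in mono (SE 0.47, adjusted p = 0.0015) and it fell by 4.19 in poly (SE 0.44, adjusted p = 0.0023). The FOXC2 calls, like those of SPARC, were not followed in the other settings. The VIM calls in mono and poly were lost there when either CBFB_KO replicate was left out.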

How the data were processed

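RNA of the free, mono and poly fractions was measured in 12 libraries, 2 for each of 6 groups taken from the sample titles. The authors aligned and quantified reads with Trimmomatic, STAR and RSEM on hg19 (per the submitters' processing notes; versions and annotation not given in the sources used here). The deposited expected counts are RSEM's estimates per gene, without normalization, and were rounded to whole numbers. The deposited TPM values sum to the same total in each library, as the authors' RSEM run scaled them. Deposited lengths and effective lengths in bases are other RSEM columns. The deposited FPKM column and hand-typed notes were not used.

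All genes were tested by the quasi-likelihood method of edgeR 4.0.16 in R 4.3.3 on 6 group means, using TMM factors, filterByExpr and Benjamini-Hochberg adjustment at 0.05. RPKM used TMM-scaled counts and each gene's median effective length. DESeq2 1.42.0 was an alternative, with other scalings, filters, left-out replicates, the replicate block and length correction. The fit was also run on simulated counts with some genes raised in CBFB_KO free. It recovered fewer of them in the poly to free ratio than in free. A ratio that did not pass the test is thus not shown to be unchanged. Symbols were found for 49995 genes, and CD24 and PECAM1 of the lists were not found. Floors of 3 counts are fixed bounds and take no account of the spread between libraries. Total counts were 41050325 to 63886726. The members and lists were chosen with earlier results of these data known. Named were all members, CBFB, up to 3 genes per list with the largest change past the threshold in the poly to free ratio, and the 5 genes most like CDH1 and VIM. Tables and sequences were read with Python 3.11.15, numpy 2.4.6, pandas 2.3.3 and matplotlib 3.10.9.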

Additional observations from a re-analysis of the deposited data

Results flagged for a closer look

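The difference between genotypes was not the same in free and poly for 5 markers, by the test of the interaction (edgeR, adjusted over all genes). It was -4.13 on the log2 scale for VIM, -3.69 for CD44, -3.82 for CDH1, -4.59 for TJP1 and -3.84 for EPCAM. With TMM scaling, for CD44, CDH1, TJP1 and EPCAM this paired a higher level in CBFB_KO free with a poly level that did not pass the test, and for VIM it paired a lower level in CBFB_KO poly with a free level that did not. The CBFB_KO free libraries also held 71.56% and 87.22% mitochondrial counts, and the part of this in the result was not tested. Groups of 2 libraries were too small to look for single outlying values.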

How the results depend on the processing

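Of 22 calls on single markers, none changed sign in the 16 alternative settings, and 287 of 344 recomputed values stayed past the threshold. These tallies include CDH2 for poly against free in WT, which entered the test through its poly libraries. The main count of 5 given below for that comparison includes it as well. All 22 stood with mitochondrial genes removed, with the DESeq2 test and with no low-count filter, 12 stood without TMM factors, where the median of all genes moved to -1.57 in free and 1.54 in the poly to free ratio, and 7 without CBFB_KO replicate 2. The number of markers called with 1 replicate left out was 3 to 5 in free (main count 5), 0 in mono (1), 0 to 1 in poly (1), 0 to 5 for the poly to free ratio (5), 2 to 3 for poly against free in WT (5) and 1 to 5 in CBFB_KO (5). Without TMM factors it was 0 in mono, 2 for the poly to free ratio and 3 for poly against free in CBFB_KO. With the CBFB_KO poly pair as 1 sample it was 0 in mono, 0 in poly, 3 in WT and 3 in CBFB_KO for poly against free. With the libraries of one comparison alone it was 0 in mono and 3 for poly against free in WT. Values that had not passed the test changed sign as follows. Without TMM factors SNAI2 was 1.14 in the poly to free ratio, and CDH1, EPCAM and FN1 were 1.48, 2.12 and 1.37 for poly against free in CBFB_KO. Of these only the EPCAM value passed the edgeR test in that setting (adjusted p = 0.01). With mitochondrial genes removed and no TMM factors, chosen after seeing the data, VIM was 0.08 in free and CDH3 was -0.14 in the poly to free ratio. With 1 replicate left out, values between genotypes ran from -1.08 to 0.13 for CDH3 in free, from -0.53 to 0.08 for CDH1, -0.49 to 1.05 for CDH3, -0.72 to 1.02 for TJP1 and -0.78 to 2.91 for FN1 in mono, and from -1.81 to 0.02 for CDH1, -0.8 to 0.11 for CDH3, -0.47 to 0.09 for EPCAM, -0.99 to 0.72 for TJP1 and -0.04 to 1.11 for FN1 in poly. The poly to free ratio of CDH3 ran from -0.09 to 0.44, and EPCAM in CBFB_KO poly against free from -0.11 to 0.05. The correlation of same-numbered differences between groups ran from -0.16 to 0.28. This cannot tell whether libraries of one number came from one gradient, since differences within each fraction can hide a pairing. With the replicate block the counts were 5 in free, 1 in mono, 1 in poly, 5 for the poly to free ratio, 4 for poly against free in WT and 5 in CBFB_KO, and 21 of the 22 calls stood (CDH2 in WT had 7.11, adjusted p = 0.052). With a block for each gradient it was 3 for poly against free in WT. The cause of these changes was not tested. With a single library left in an arm, that library is assumed to vary like the others. Depth limits CDH2 and ZEB1 most, at 100 and 47 counts in all.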
